A study of Mus musculus with 40 samples.

Results

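The genes described here encode the core of the Bcl2 family: the effectors Bax and Bak1, the BH3-only proteins Bbc3 (PUMA), Pmaip1 (NOXA), Bmf, Bid and Bcl2l11 (BIM), and the survival proteins Bcl2l1 (BCL-XL), Mcl1 and Bcl2. They were taken by symbol from the deposited expression table, and all 10 of 10 were found once each among its 18024 genes. Messenger RNA was sequenced from pancreas, kidney, ovary, heart and small intestine of mice of the strain C57BL/6j that were 60 days old, 24 hours after p53 was activated. The 5 FMTg libraries of a tissue came from Mdm2FM/- Cag-CreERTg mice, in which Mdm2 is lost, and the 3 Tg libraries came from Mdm2+/- Cag-CreERTg mice, which retain it. Both genotypes carry an Mdm2 null allele and the Cre transgene, a recombinase fused to the oestrogen receptor under the widely active Cag promoter, so the Tg mice are not wild type. The agent that activated Cre is not given in the sources used here. The 40 libraries came from 13 mice, so libraries of different tissues are not independent: 3 Tg mice were sampled in all tissues, and 10 FMTg mice shared the FMTg libraries.

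Bcl2 family proteins decide whether the outer mitochondrial membrane is opened in apoptosis. Bax and Bak1 form the pores, the survival proteins hold them and the BH3-only proteins in check, and the BH3-only proteins bind survival proteins or activate the effectors directly. Bax, Bbc3 and Pmaip1 are textbook p53 targets, whereas Bmf and Bcl2l11 are better known for responding to loss of adhesion, loss of growth factors and FoxO factors. All these proteins are also controlled after transcription, which RNA does not show.

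In the kidney Bax, Bbc3 and Pmaip1 rose in FMTg mice, by 2.61-fold, 3.35-fold and 1.94-fold, and no member fell there. Over the 5 tissues together Bax and Bbc3 rose and Bmf fell. The survival genes Bcl2l1, Mcl1 and Bcl2 passed the test in no tissue, nor did the effector Bak1 and the BH3-only genes Bid and Bcl2l11.

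The labels were checked first. Mdm2, itself a p53 target, lay higher in all 5 FMTg libraries than in all 3 Tg libraries of every tissue, with 918 to 1039.7 normalised reads in the Tg kidneys and 3229.5 to 5696 in the FMTg kidneys. Which part of Mdm2 is removed is not in the labels, so its total does not check the deletion. Depth was 7.16 to 13.9 M reads in the pancreas and 8.97 to 29.0 M in the other tissues. FMTg replicates 4 and 5 of each tissue came from mice with lower numbers than the rest and had more genes without reads than any other library of their tissue, 2325 and 2346 against 1535 to 1654 in the kidney. These libraries also held 404 to 2343 normalised reads of the Y-linked gene Ddx3y in the pancreas, kidney, heart and small intestine, where other libraries held at most 1.89, except FMTg pancreas replicate 1 (914), FMTg pancreas replicate 3 (26.1) and Tg pancreas replicate 3 (16.3). Markers of the labelled tissue were abundant in every library, acinar markers making up at least 24.8% of the reads in the pancreas, but many libraries also carried RNA of another tissue. Proximal tubule markers of the kidney summed to 74458 normalised reads in FMTg pancreas replicate 3 and to 24333 in FMTg heart replicate 3. Enterocyte markers summed to 87304 in FMTg ovary replicate 3, where acinar markers of the pancreas made up 3.49% of the reads, and acinar markers made up 16.7% in Tg ovary replicate 1. Other libraries held such RNA too: Tg small intestine replicate 1 had 37840 proximal tubule and 55055 cardiomyocyte reads, and acinar shares reached 2.70% in the small intestine. FMTg kidney replicate 3 had 169127 acinar reads, and without it Bax and Bbc3 passed in the kidney and Pmaip1 did not (limma adjusted p = 0.0573). Without the 4 pancreas, ovary and heart libraries named first, a choice made after seeing the data that leaves the others in, the members that passed were as many as with them: 0 in the pancreas, ovary and heart, and 3 on the mean over tissues.

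Promoter windows are shown for the 3 members that passed on the mean over tissues, Bax, Bbc3 and Bmf, to print the letters before a transcript start. Of the windows of Bbc3 and of Bmf, 3 each, 1 with a match was chosen. The sequences are the 250 bases before a RefSeq transcript start (build GRCm38.p6), read 5′ to 3′ on the strand of the gene. Capitals mark matches to the p53 decamer (the consensus that p53 binds in tandem), to GTAAACA (the FoxO core, either strand) or to CACGTG (the E-box, which reads the same on both strands). No match overlaps another, and none of the 3 windows holds an annotated exon. The first lies before Bax at chr7:45466899-45467148 on the minus strand, the second before an internal start of Bbc3 at chr7:16310011-16310260 on the plus strand, and the third before an internal start of Bmf, within the gene, at chr2:118544588-118544837 on the minus strand.
Bax: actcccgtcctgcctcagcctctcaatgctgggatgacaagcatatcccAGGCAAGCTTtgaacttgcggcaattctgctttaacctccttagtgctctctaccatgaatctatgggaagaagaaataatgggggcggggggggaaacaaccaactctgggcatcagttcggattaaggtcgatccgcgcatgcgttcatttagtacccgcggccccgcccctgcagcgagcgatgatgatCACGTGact
Bbc3: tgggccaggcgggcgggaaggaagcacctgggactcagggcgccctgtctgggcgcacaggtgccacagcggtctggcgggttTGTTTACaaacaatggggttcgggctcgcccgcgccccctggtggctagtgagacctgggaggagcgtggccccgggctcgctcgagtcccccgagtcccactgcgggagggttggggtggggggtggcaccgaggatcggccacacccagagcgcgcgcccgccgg
Bmf: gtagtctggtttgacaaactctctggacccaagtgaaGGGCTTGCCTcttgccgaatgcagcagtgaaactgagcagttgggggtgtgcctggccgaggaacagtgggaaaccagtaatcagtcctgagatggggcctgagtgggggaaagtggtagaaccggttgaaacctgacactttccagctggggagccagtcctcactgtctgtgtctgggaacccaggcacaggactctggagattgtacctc
In Bax the decamer starts 201 bases before the transcript start, as AGGCAAGCTT, and CACGTG starts 9 bases before it. The Bmf window holds the decamer GGGCTTGCCT, 213 bases before the start, and the Bbc3 window holds GTAAACA on the other strand, 167 bases before. The count covered 16 RefSeq windows of 9 of the members, with Pmaip1 left out by choice. The decamer stood in 2 of these windows and in 7.13% of all 32851 windows, GTAAACA in 2 (Bbc3 and Bcl2l11) against 3.17%, and CACGTG in 2 (Bax and another Bbc3 start) against 6.02%. A match describes the letters only and shows no binding.

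Values below are normalised reads, meaning whole reads divided by the size factor of the library. Log2 changes are FMTg minus Tg on the deposited variance-stabilised scale, with the standard error (SE) of a limma fit to the 8 libraries of a tissue, and folds are powers of 2 of them, compressed toward 1 for genes with few reads. A gene passed at a Benjamini-Hochberg adjusted p below 0.05 over all genes tested in the tissue. In bulk tissue a lower number of cells of a type and less RNA per cell cannot be told apart. The members in the table lie on GRCm38 (GENCODE M21) at chromosome 7, 45461697 to 45466898 (Bax), chromosome 17, 27019810 to 27029009 (Bak1), chromosome 7, 16308393 to 16318205 (Bbc3), chromosome 2, 118528757 to 118549687 (Bmf), chromosome 6, 120891930 to 120916853 (Bid), chromosome 2, 128126038 to 128162547 (Bcl2l11), chromosome 2, 152780668 to 152831728 (Bcl2l1), chromosome 3, 95658788 to 95663176 (Mcl1), chromosome 1, 106538178 to 106714274 (Bcl2), and on chromosome 18 (Pmaip1). The strand setting of the read count is not given in the sources used here, so Bak1 possibly includes reads of Ggnbp1 (614 shared exon bases on the opposite strand), Bid reads of Bcl2l13 (628) and Bcl2 reads of an antisense gene (558). Bax shares 192 exon bases with the predicted gene Gm45808 on its own strand.

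In the kidney 3 of the 10 members passed, all higher in FMTg, against 0.616% of the 15415 genes tested that changed in either direction, 0.603% that rose and 0.013% that fell. The members' median log2 change there was 0.25, beside -0.05 over all genes tested. In the pancreas 0 of 10 passed (background 0.446%, of which 0.419% rose), and likewise in ovary (0%), heart (0.019%) and small intestine (0%). In ovary and small intestine limma called no gene at all. An unadjusted p below 0.05 was found for 1049 of 16486 genes in the ovary, where 824.3 are expected with no difference, and for 388 of 16104 in the small intestine, fewer than the 805.2 expected, and voom on the recovered reads called 0 in both. All 10 members passed the filter on low values in every tissue. A member that did not pass is not shown to be unchanged. Exact two-sided permutation tests over the 56 ways to split 3 and 5 libraries are given for single genes beside the adjusted p, and the smallest p they can give is 0.0179.

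Bax, the effector that moves from the cytosol to mitochondria, was higher in FMTg kidneys by a margin well outside the spread of the libraries. It had 199, 166 and 179 normalised reads in the 3 Tg kidneys and 451, 548, 441, 496 and 480.0 in the 5 FMTg kidneys. The groups were far apart, and the lowest FMTg kidney was more than 2 times the highest Tg kidney. The fitted log2 difference was 1.39 ± 0.11 (SE, 5 FMTg and 3 Tg libraries), a 2.61-fold rise (limma, adjusted p = 5.26e-04, exact permutation p = 0.0179). The call held in all 8 fits that left out 1 library, with an adjusted p of 0.00193 to 0.00785.

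In the small intestine Bax had 242, 211 and 289.5 normalised reads in Tg and 506, 484, 599, 916 and 796 in FMTg. Every FMTg library lay above every Tg library. The log2 change was 1.36 ± 0.24 (limma adjusted p = 0.558, exact permutation p = 0.0179), near the 1.39 of the kidney. Without FMTg replicates 4 and 5 it was 1.37 in the kidney and 1.08 in the small intestine. Bax ranked 9th of 16104 genes by its limma p there, in a tissue where none passed. In the pancreas the Tg libraries had 349, 227 and 502 reads and the FMTg libraries 1106, 918, 637, 524 and 619. The groups did not overlap, but FMTg replicate 4 lay only just above the highest Tg library (1.09 ± 0.32, adjusted p = 0.299, exact permutation p = 0.0179). Heart libraries had 124, 134 and 165 reads in Tg and 243, 467, 265, 257 and 223 in FMTg, without overlap (0.97 ± 0.26, adjusted p = 0.744, exact permutation p = 0.0179). The ovary differed in its values: 289, 175 and 209 in Tg and 198, 333, 379, 215 and 203 in FMTg. There the groups overlapped, and only FMTg replicates 2 and 3 exceeded all Tg ovaries (0.21 ± 0.28, 95% interval -0.41 to 0.84, adjusted p = 0.889). The highest Tg ovary (289, replicate 1) and the highest FMTg ovary (379, replicate 3) are libraries with RNA of another tissue. The part of that RNA in these Bax values was not tested.

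All 5 FMTg libraries thus lay above all 3 Tg libraries for Bax in 4 tissues. Members with this pattern were Bax and Bbc3 in the pancreas (4.68% of genes showed it), both with Pmaip1 in the kidney (4.17%), 0 members in the ovary (3.43%), and Bax and Bbc3 again in heart (3.42%) and small intestine (1.69%). Members with all FMTg libraries below all Tg libraries were Bmf in the pancreas (5.05% of genes) and in the ovary (2.38%), with 0 in the kidney (4.56%), heart (3.49%) and small intestine (1.19%). Of 19 lists of cell type markers, each summed in all 5 tissues, 8 pairs of list and tissue did not overlap in their summed level either. Single genes did so at the shares given above, and no share over other sets of genes is given. In the pancreas duct, endothelial and erythroid markers were higher in all FMTg libraries, the duct sum being 5041 to 6668 normalised reads in Tg and 7670.0 to 14117 in FMTg, with 0 of 5 duct and 0 of 4 endothelial genes past the test and 2 of 5 erythroid genes. Macrophage (2537 to 3653 against 4417 to 10585) and fibroblast sums were higher in all FMTg hearts, and neutrophil sums lower in all FMTg kidneys (326 to 880 against 157 to 316), with 0 of 5 genes of each list past the test. The part of these cell types in the members' values was not tested.

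**Figure D1:**
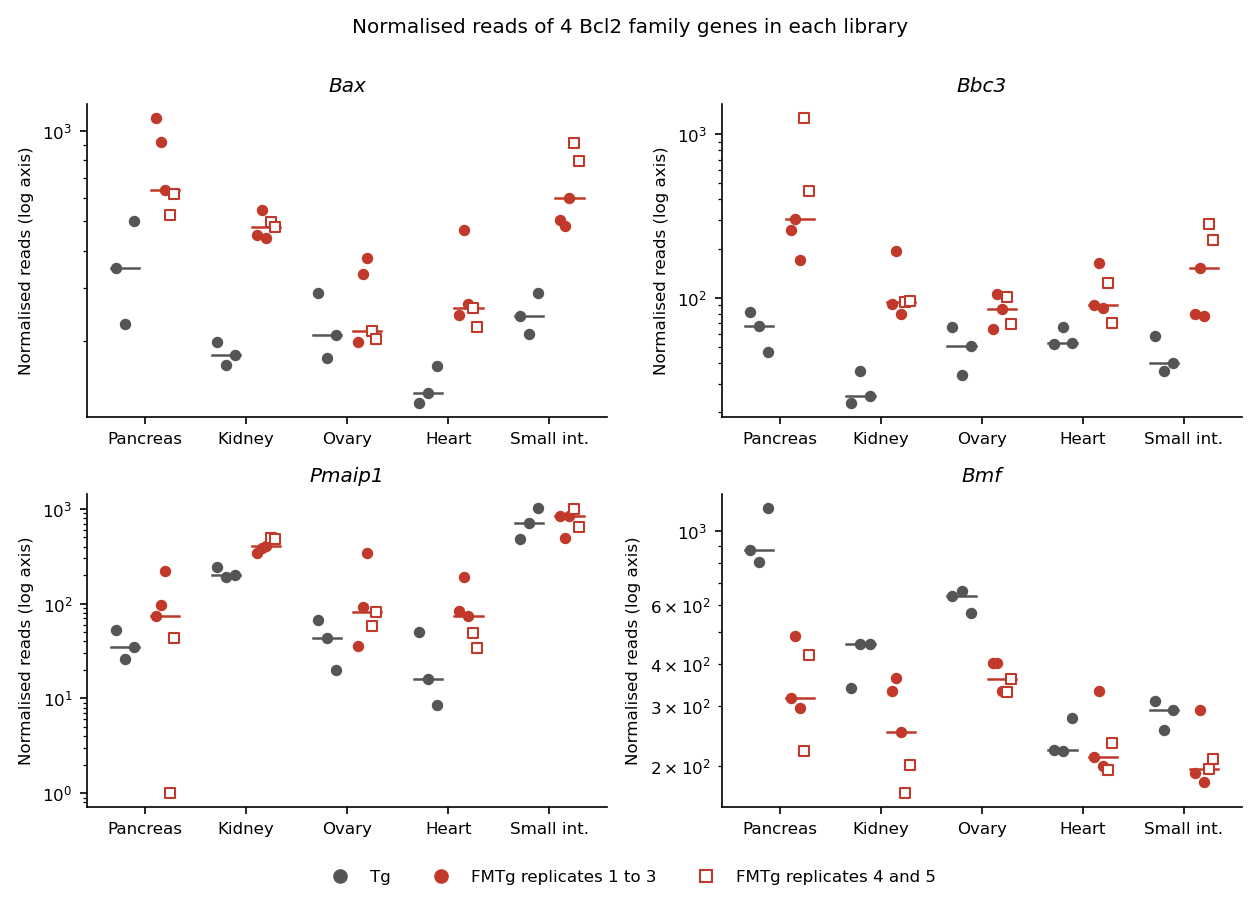
Normalised reads (log axis) of Bax, Bbc3, Pmaip1 and Bmf in each library, by tissue. Grey points are Tg libraries, filled red points FMTg replicates 1 to 3 and open squares FMTg replicates 4 and 5, with a bar at each group's median; the FMTg pancreas library with 0 Pmaip1 reads is drawn at 1. Bax and Bbc3 lie higher in all FMTg libraries of 4 tissues, and Bmf lies lower in all FMTg libraries of the pancreas and ovary.

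Bak1, the effector that sits in the outer mitochondrial membrane, passed in no tissue, and its FMTg libraries were split. In the small intestine it had 1168, 1738 and 1385 normalised reads in Tg, 1746, 1312 and 1272 in FMTg replicates 1 to 3, and 3851 and 5083 in FMTg replicates 4 and 5. The first 3 FMTg libraries lay at the Tg level and the other 2 far above every other library (log2 change 0.67 ± 0.48, 95% interval -0.42 to 1.75, limma adjusted p = 0.990). In the ovary Bak1 had 386, 367 and 311 reads in Tg and 296, 317, 626, 718 and 802 in FMTg, and in the heart 240.0, 215 and 209 in Tg and 309, 372, 189, 477 and 525 in FMTg. Replicates 4 and 5 were again the highest FMTg libraries, as they were in the kidney (254 and 356, against 166 to 197). Bak1 in replicates 4 and 5 thus exceeded replicates 1 to 3 in 4 of 5 tissues, while 17.4% to 24.0% of all genes did so in those 4 tissues. These are the libraries with Ddx3y reads (outside the ovary) and many genes without reads, and whether sex, RNA quality or the mice's numbers bear on Bak1 was not tested. Without them the log2 change of Bak1 over the 5 tissues was 0.12 in place of 0.54.

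Bbc3, the p53 target PUMA that binds all survival proteins, had the largest rise of the members in the kidney and on the mean over tissues. The Tg kidneys had 22.8, 35.7 and 25.2 normalised reads and the FMTg kidneys 92.1, 195, 80.3, 94.2 and 95.8. Every FMTg kidney was above every Tg kidney, and replicate 2 was about 2 times the other 4. The log2 change was 1.74 ± 0.28, a 3.35-fold rise (limma, adjusted p = 0.0296, exact permutation p = 0.0179). This call was less firm than that of Bax: it held in 2 of 8 fits that left out a library (without FMTg replicate 2 or 3), with an adjusted p of up to 0.187, and it was lost without replicates 4 and 5 (0.0685).

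In the pancreas Bbc3 had 82.1, 67.0 and 46.7 reads in Tg and 258, 304, 172, 1251 and 452 in FMTg. The groups did not overlap and replicate 4 stood apart at the top (2.46 ± 0.57, a fold of 5.50, limma adjusted p = 0.163, exact permutation p = 0.0179). In the small intestine the values were 58.6, 36 and 40 in Tg and 79.4, 152, 77.7, 284 and 227 in FMTg. All FMTg libraries were above all Tg libraries, with replicates 4 and 5 highest (1.59 ± 0.45, adjusted p = 0.990, exact permutation p = 0.0357). Heart libraries had 52.5, 66.8 and 53 reads in Tg and 90.2, 163, 86.9, 123 and 70.1 in FMTg, apart by a narrow margin (0.78 ± 0.30, adjusted p = 0.760, exact permutation p = 0.0536). In the ovary the Tg libraries had 66.6, 33.6 and 51 reads and the FMTg libraries 65.0, 106, 86.1, 101 and 69.3. Of the FMTg ovaries 4 of 5 exceeded all Tg ovaries (0.72 ± 0.29, adjusted p = 0.749, exact permutation p = 0.0536). The highest Tg ovary (66.6), replicate 1, is the library with acinar RNA, whose part in this value was not tested. The mouse of FMTg replicate 2, sampled in all 5 tissues, had the highest Bbc3 of the FMTg libraries in the kidney, ovary and heart.

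Pmaip1, the p53 target NOXA that neutralises Mcl1, passed in the kidney. It had 246, 191 and 201 normalised reads in the Tg kidneys and 344, 388, 402, 489 and 480.0 in the FMTg kidneys, and the lowest FMTg kidney lay clearly above the highest Tg kidney. The log2 change was 0.96 ± 0.15, a 1.94-fold rise (limma, adjusted p = 0.0225, exact permutation p = 0.0179). The call held in 3 of 8 fits without a library and was lost without any Tg kidney and without FMTg replicate 3 or 5, with an adjusted p of up to 0.172, and it was lost in a model of all 40 libraries (1.00). In the small intestine, where NOXA RNA was most abundant, the values were 480.2, 709 and 1016 in Tg and 845, 492, 843, 989 and 637 in FMTg. The FMTg libraries all lay inside the Tg range (0.07 ± 0.29, 95% interval -0.58 to 0.73, adjusted p = 0.993).

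In the heart Pmaip1 had 50.6, 16.2 and 8.51 reads in Tg and 84.7, 190.4, 74.8, 49.2 and 34.1 in FMTg. FMTg replicates 1 to 3 were above all Tg hearts and replicates 4 and 5 were not (1.61 ± 0.60, adjusted p = 0.760, exact permutation p = 0.0714). Ovary values were 66.6, 43.2 and 20.1 in Tg and 35.4, 91.3, 344, 57.4 and 81.2 in FMTg (1.07 ± 0.65, adjusted p = 0.844). The highest of them, replicate 3, is the ovary library with enterocyte and acinar RNA, whose part in this value was not tested. Pancreas values were 53.3, 25.8 and 35.0 in Tg and 74.9, 96.7, 224, 0 and 43.0 in FMTg (0.21 ± 1.21, adjusted p = 0.969). FMTg replicate 4, with 0 reads, allows up to 18.5 normalised reads (3 counted reads, counting error only), and replicate 3 is the pancreas library with kidney RNA, whose part in the values of Pmaip1 and Bid there was not tested. Without replicate 3 the pancreas change was -0.34, and without replicates 4 and 5 it was 1.54, so its sign depended on single libraries.

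Bmf, the BH3-only protein that binds myosin V motors and is released on loss of adhesion, went the other way. The Tg pancreases had 876, 805 and 1165 normalised reads and the FMTg pancreases 317, 487, 297, 222 and 427. Every FMTg library was below every Tg library by a wide gap, but the change of -1.46 ± 0.27 (a fold of 0.364) did not pass over all genes (limma, adjusted p = 0.0719, exact permutation p = 0.0179), where 0.0262% of genes fell. It passed when FMTg replicate 4 was left out (0.0462), with voom on the recovered reads (0.0434), with library weights (0.00518) and in a model of all 40 libraries (3.27e-05), and it did not pass without any other library (up to 0.427).

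In the ovary Bmf had 638, 661 and 569 reads in Tg and 404, 403, 332, 331 and 363 in FMTg. Both groups were tight and did not overlap (-0.76 ± 0.14, limma adjusted p = 0.274, exact permutation p = 0.0179), and Bmf ranked 20th of 16486 genes by p. Summed luteal and theca markers were also lower in all FMTg ovaries (26686 to 44029 in Tg, 21203 to 24880 in FMTg), and adipocyte markers were higher in all of them (1022 to 1864 against 2027 to 31195), with 0 of 5 genes of either list past the test. Their part in the Bmf values was not tested. In the kidney Bmf had 341, 459 and 459.6 reads in Tg and 334, 365, 252, 166 and 201 in FMTg, with 4 of 5 FMTg kidneys below all Tg kidneys (-0.71 ± 0.25, adjusted p = 0.552, exact permutation p = 0.0536). Small intestine values were 311, 256 and 293 in Tg and 190.1, 292, 178, 196 and 209 in FMTg, where replicate 2 alone reached the Tg range (-0.44 ± 0.19, adjusted p = 0.990, exact permutation p = 0.0893). In the heart the groups overlapped fully, at 222, 221 and 277 in Tg and 212, 334, 199.9, 195 and 233 in FMTg (-0.05 ± 0.21, 95% interval -0.54 to 0.43, adjusted p = 0.960).

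Bid, which caspase-8 cleaves to link death receptors to mitochondria, passed nowhere. Its highest values were in the kidney, 794, 649 and 844 in Tg and 805, 779, 861, 936 and 1107 in FMTg, where the groups overlapped (log2 change 0.23 ± 0.14, 95% interval -0.08 to 0.54, limma adjusted p = 0.564). In the pancreas it had 107, 41.3 and 91.1 normalised reads in Tg and 76.9, 110.2, 309, 0 and 51.5 in FMTg, the 309 in the library with kidney RNA and the 0 in FMTg replicate 4. The interval there ran from -3.35 to 2.31 and bounds little. The changes in the other tissues were -0.02 ± 0.20 (ovary), 0.05 ± 0.55 (heart) and -0.47 ± 0.31 (small intestine).

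Bcl2l11, the BH3-only protein BIM that is known for its FoxO control, also passed nowhere. Its log2 changes ran from -0.33 ± 0.21 in the ovary to 0.26 ± 0.19 in the kidney, and each 95% interval included 0. The hearts had 367, 498 and 422 normalised reads in Tg, 559, 622 and 505 in FMTg replicates 1 to 3, and 233 and 331 in replicates 4 and 5. The FMTg hearts thus lay on both sides of the Tg range, and replicates 4 and 5 were below replicates 1 to 3 in 4 of 5 tissues, as 25.3% to 34.0% of all genes were in those 4 tissues.

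None of the survival genes passed in a tissue or on the mean over tissues. Bcl2l1, which encodes BCL-XL, had 1604, 2025 and 2251 normalised reads in the Tg kidneys and 1961, 2485, 1963, 2539 and 2537 in the FMTg kidneys (log2 change 0.23 ± 0.15, 95% interval -0.10 to 0.56, limma adjusted p = 0.564). In the pancreas it had 1393, 1315 and 1829 in Tg and 1123, 1353, 1314, 1269 and 1039.5 in FMTg, and 4 of 5 FMTg libraries lay just under the Tg range (-0.30 ± 0.16, adjusted p = 0.692, exact permutation p = 0.0536). The changes in ovary, heart and small intestine were between -0.05 and 0.18.

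Mcl1, the short-lived survival protein that NOXA targets, had positive log2 changes in all 5 tissues, from 0.08 ± 0.12 in the small intestine to 0.31 ± 0.17 in the pancreas, and passed in none (the ovary had -0.08 without replicates 4 and 5 and -0.063 with library weights). In the pancreas it had 2758, 2550.3 and 2625 normalised reads in Tg and 3528, 2848, 2688, 4325 and 3296 in FMTg, with 4 of 5 FMTg libraries above all Tg libraries (adjusted p = 0.684, exact permutation p = 0.0893). In the kidney FMTg replicates 4 and 5 stood at 3678 and 3468 while replicates 1 to 3 (2474, 2457 and 2566) lay within the Tg range of 2123 to 2608. Bcl2, the founding survival gene, had 470.2, 400.0 and 406 normalised reads in the Tg small intestines, 385, 556 and 402 in FMTg replicates 1 to 3, and 187 and 171 in replicates 4 and 5 (-0.45 ± 0.38, adjusted p = 0.990). Its replicates 4 and 5 were below replicates 1 to 3 in the kidney, heart and small intestine. So were 34.0%, 25.3% and 33.5% of all genes in these tissues, and Bak1 was above in the same libraries. Without replicates 4 and 5 the Bcl2 change in the small intestine was 0.06.

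**Figure D2:**
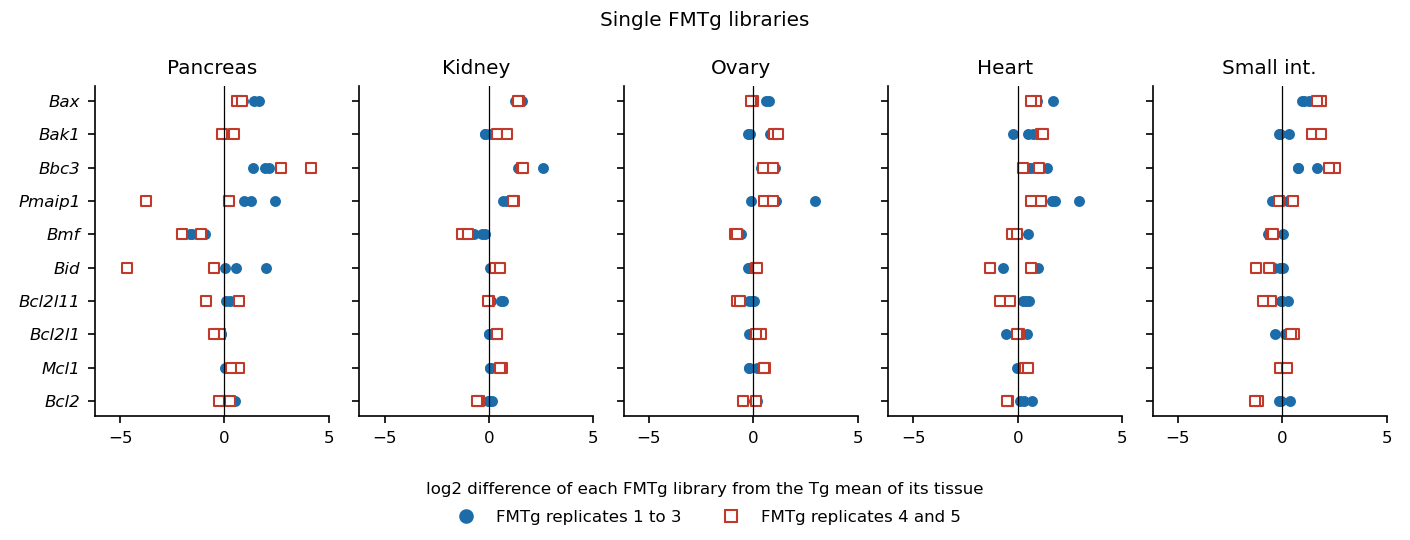
Log2 difference of each FMTg library from the Tg mean of its tissue, for the 10 genes in 5 tissues. Blue points are FMTg replicates 1 to 3 and open red squares replicates 4 and 5; Bak1 squares lie to the right of the points in 4 tissues, Bcl2 squares to the left in 3, and the squares at the far left of the pancreas panel are the library with 0 reads of Pmaip1 and Bid.

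The 5 tissue effects were averaged in 1 limma fit to the 40 libraries in which libraries of a mouse were allowed to correlate. Bax rose by 1.00 ± 0.16 on the log2 scale (1.99-fold, adjusted p = 2.42e-04), Bbc3 by 1.49 ± 0.24 (2.81-fold, 3.16e-04), and Bmf fell by 0.71 ± 0.13 (a fold of 0.611, 8.68e-04). These 3 of 10 members stand beside 0.706% of 17284 genes that changed, 0.66% that rose and 0.0463% that fell, so Bmf was 1 of 8 genes that fell. Each of the 3 held in all 8 fits that left out 1 replicate number of a genotype in every tissue, with an adjusted p of up to 0.0298 for Bax, 0.0213 for Bbc3 and 0.0495 for Bmf, and the Bmf call was lost without the pancreas (-0.51, adjusted p = 0.0525). For the other members the mean effect was 0.54 for Bak1 (95% interval 0.09 to 0.99, adjusted p = 0.319), 0.26 for Mcl1 (0.06 to 0.47, 0.289), 0.70 for Pmaip1 (-0.26 to 1.65, 0.581, but 0.84 and an adjusted p of 0.0244 with library weights), 0.04 for Bcl2l1 (-0.19 to 0.27, 0.921), -0.10 for Bcl2l11 (-0.43 to 0.23, 0.844), -0.16 for Bcl2 (-0.48 to 0.16, 0.732) and -0.22 for Bid (-1.08 to 0.65, 0.883).

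Whether the effect differs between tissues was tested in the same model with an F test, which 0.133% of genes passed and 0 of 10 members. Bmf came nearest (adjusted p = 0.0712), with changes from -1.46 in the pancreas to -0.05 in the heart, followed by Bax (0.404) and Bbc3 (0.505). The kidney calls of Bax, Bbc3 and Pmaip1 (F test adjusted p = 1.00 for Pmaip1) are therefore not shown to be larger than the effects in the other tissues. With library weights the F test did pass for Pmaip1 (0.0185), Bmf (0.0232), Bax (0.0347), Bcl2l11 (0.0479) and Bbc3 (0.0494), beside 1331 genes in all.

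**Figure D3:**
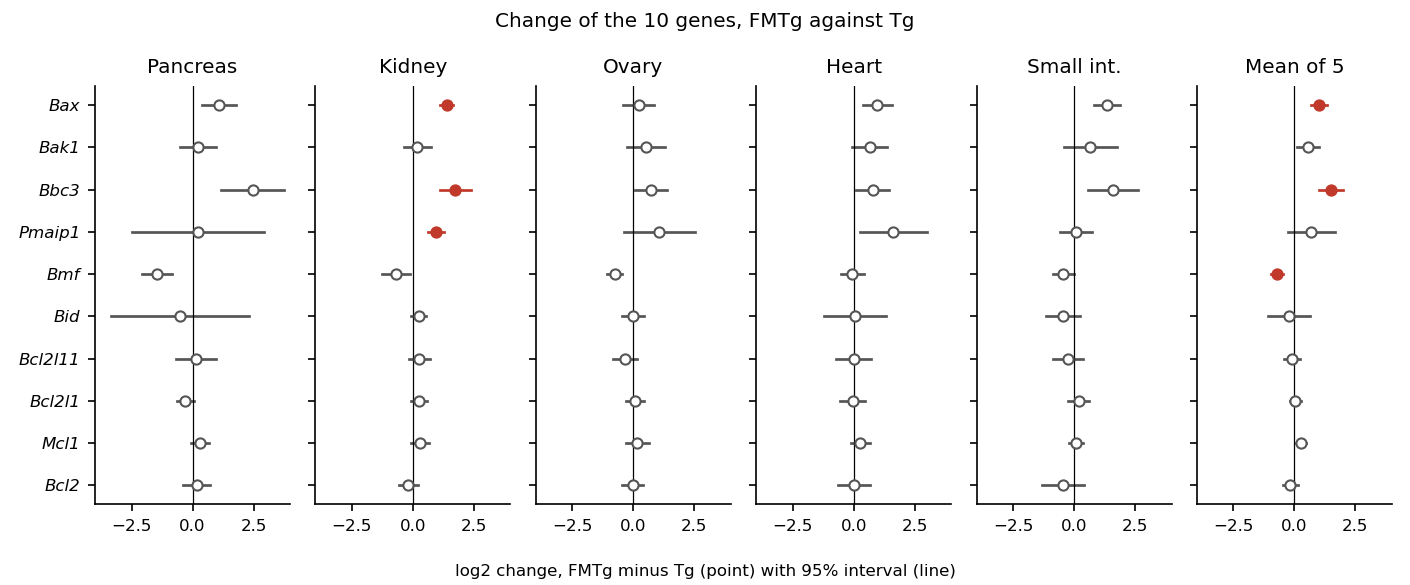
Log2 change (FMTg minus Tg) of the 10 genes with its 95% interval, in each tissue and as the mean of the 5 tissues. Filled red points passed at an adjusted p below 0.05: Bax, Bbc3 and Pmaip1 in the kidney, and Bax, Bbc3 and Bmf on the mean. The intervals of Pmaip1 and Bid in the pancreas are the widest.

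Ratios within a library set members side by side, per kb of exon and with no test. They restate the members' values given above, for pairs picked by hand, and no share over other gene pairs is given. Their separation is therefore no further support for a change. The ratio of Bbc3 to Bmf had a median of 0.165 in the Tg kidneys and 1.18 in the FMTg kidneys, and 0.206 against 2.01 in the pancreas. All 5 FMTg libraries were above all Tg libraries for it in 4 tissues, and 4 of 5 in the heart. The ratio of Bax to Bcl2l1 was above every Tg library in all 5 FMTg libraries of the pancreas, kidney, heart and small intestine, and in 2 of 5 ovaries. Against Mcl1 and Bcl2 the separation was less complete: both ratios of Bax lay above every Tg library in all 5 FMTg libraries of the kidney, heart and small intestine but in 3 of 5 pancreases, and in the ovary 2 of 5 did so for Mcl1 and 1 of 5 for Bcl2. The median ratio of Bax to Bcl2l1 was 0.238 in Tg and 0.641 in FMTg kidneys, and 0.838 and 2.08 in the small intestine.

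The control levels show from where these changes started. Per kb of exon, Mcl1 was the most abundant member in all 5 Tg tissues, from 642 ± 82.9 normalised reads per kb in the ovary to 1269 ± 187 in the heart (SD, n = 3). Bcl2l1 came second in the pancreas, kidney, ovary and heart, and Bak1 in the small intestine. The small intestine stood apart for Bak1 (594 ± 120 per kb, 7.88 times the pancreas at the low end) and for Pmaip1 (269 ± 98.5, against 78.0 ± 10.8 in the kidney and 9.19 ± 8.21 in the heart, a ratio of 29.3). The ovary, pancreas and heart overlapped at the low end of Pmaip1.

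Bid was highest in the kidney (215 ± 28.5 per kb), above the small intestine (73.1 ± 20.3) and the ovary (39.7 ± 4.64), with the pancreas and heart overlapping at the bottom. Bmf was highest in the pancreas (181 ± 36.4), then ovary (119 ± 9.17), kidney (79.9 ± 13), small intestine (54.6 ± 5.38) and heart (45.7 ± 6.13), and the last pair overlapped. The pancreas and ovary were also the tissues where all FMTg libraries lay below all Tg libraries. The same Tg libraries set this order and that comparison, so the match is not independent and shows no link to level. The log2 change in the kidney (-0.71) was near that in the ovary (-0.76) with all libraries. Without FMTg replicates 4 and 5 it was -0.40 in the kidney and -0.71 in the ovary. Bax ran from 228 ± 87.5 in the pancreas to 89.2 ± 13.5 in the heart, where only kidney and heart were neighbours without overlap. Bbc3 was the least abundant member in the kidney (13.1 ± 3.23 per kb) and small intestine, and ran from 30.7 ± 8.36 in the pancreas through heart and ovary to 21.1 ± 5.67 in the small intestine, each overlapping with the next. The kidney did not overlap with the small intestine but did so in range with the ovary (33.6 and 35.7 normalised reads were the lowest ovary and the highest kidney).

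Bcl2l1 was highest in the kidney (427 ± 71.6), overlapping with the heart and the heart with the pancreas, and lowest in ovary and small intestine (183 ± 9.93), which overlapped each other. Bcl2 ran from 60.6 ± 9.54 in the ovary, overlapping with the kidney, to 29.4 ± 5.59 in the pancreas, which lay apart at the bottom. Bcl2l11 ranged least, from 53.4 ± 8.15 in the heart to 29.8 ± 3.63 in the kidney. The same 3 mice gave all Tg tissues, and no test was made of these levels.

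**Figure D4:**
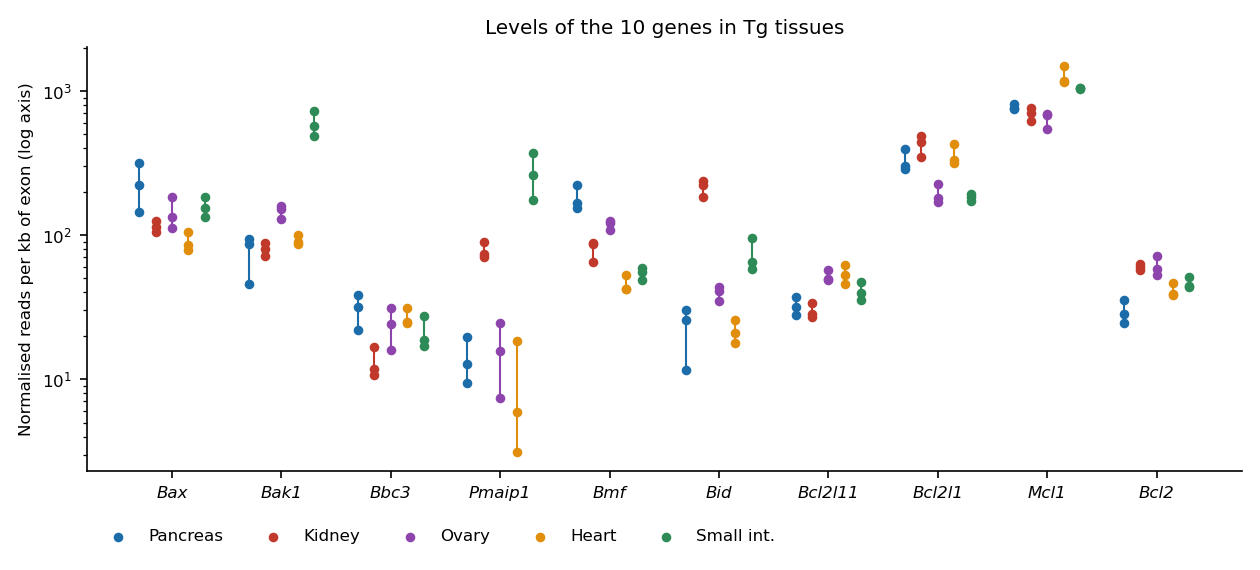
Normalised reads per kb of exon (log axis) of the 10 genes in the Tg libraries, 3 points per tissue joined by a line. Mcl1 is highest throughout, and the small intestine stands above the other tissues for Bak1 and Pmaip1, as the kidney does for Bid.

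Neighbours of the family in the pathway were described from 3 lists. Of 16 other Bcl2 family genes, such as Bok, Bad, Bik and Bcl2l2, 0 passed in any tissue or on the mean, as did 0% to 0.706% of all genes. A negative mean effect was found for 13 of 16 (median -0.23, beside -0.06 over all genes, whose share of negative effects is not given). Bnip3, a mitophagy receptor that hypoxia induces, had the smallest p of the list, in the heart (-0.98 ± 0.19, limma adjusted p = 0.495). Bnipl (mean effect -0.88 ± 0.37, 0.330) and Bcl2l15 (small intestine, -0.74 ± 0.29, 0.990) did not pass either. Outside the ovary Bnipl had few reads, with 2.02 to 22.5 normalised reads in the Tg hearts and 0 to 5.54 in the FMTg hearts. The copies Bcl2a1a, Bcl2a1b and Bcl2a1d are near-identical, so their reads are uncertain.

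Among 15 genes that act after the mitochondrial step 1 passed, in the kidney, where 0.616% of all genes did. It was Apaf1, the scaffold of the apoptosome and a p53 target. Apaf1 had 298 to 309.9 normalised reads in the Tg kidneys and 497 to 838 in the FMTg kidneys, without overlap (1.06 ± 0.17, 2.09-fold, limma adjusted p = 0.0303). Neither the inhibitor of apoptosis Birc2 (-0.37 ± 0.17) nor the nuclease Endog (0.56 ± 0.27) passed in the small intestine (0.990 for both). On the mean over tissues the median of the 15 was 0.03.

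Of 25 listed regulators 23 were in the table. Of all genes tested 0.603% rose in the kidney, 0.419% in the pancreas and 0.66% on the mean over tissues, and at most 0.0463% fell. In the kidney 4 rose: Tnfrsf10b, the TRAIL death receptor (2.36 ± 0.14, 5.14-fold, limma adjusted p = 4.73e-05), Pidd1, the scaffold that activates caspase-2 (1.64 ± 0.22, 0.00984), the death receptor Fas (0.92 ± 0.14, 0.0193) and Fbxw7, the ubiquitin ligase adaptor that targets MCL1 (0.64 ± 0.11, 0.0371). In the pancreas 2 rose, Pidd1 (6.07-fold, 0.0142) and Foxo3 (1.11 ± 0.18, 0.0337), a transcription factor with Bbc3 and Bcl2l11 among its known targets. Foxo3 had 1627 to 1882 normalised reads in the Tg pancreases and 3035 to 5175 in the FMTg pancreases. The mean over tissues passed for Pidd1 (1.56 ± 0.25, 1.97e-04), Tnfrsf10b (1.23 ± 0.19, 1.30e-04) and Fas (0.69 ± 0.14, 0.00520), and 0 regulators fell. Dynll1 and Dynll2 encode dynein light chains, which bind Bcl2l11 and Bmf: Dynll1 had a change of 0.52 ± 0.22 in the kidney (0.564) and Dynll2 a mean effect of -0.41 ± 0.15 (0.263). Ppp1r13l, an inhibitor of p53, did not pass in the heart (-0.84 ± 0.26, 0.760).

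Likeness of pattern was described over the 40 libraries after each tissue mean was subtracted, against 17280 genes, with Pearson's r. These libraries share mice, depth and genotype, so a genotype effect alone gives a high r, and no p is given. Nearest to Bax were Mdm2 (0.919), Gdf15 (0.911) and Aaas (0.903), and nearest to Bbc3 were Klhl26 (0.885), Trim11 (0.879) and Gdf15 (0.876). For Pmaip1 they were Tmem19 (0.841), Sgpp2 (0.828) and Pqlc3 (0.811), and for Bmf Sema3f (0.814), Sgms1 (0.813) and Wsb1 (0.798). Among the members, Bax and Bbc3 were most alike (0.717), followed by Pmaip1 and Bid (0.688), 2 genes that were both at 0 reads in FMTg pancreas replicate 4. Bak1 and Bcl2 (-0.664) and Bbc3 and Bmf (-0.637) were most opposed.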

How the data were processed

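RNA was extracted with Trizol from flash-frozen tissue, per the labels. Per the submitters' processing notes, the tools were STAR 2.6.0b and DESeq2 and the build GRCm38. The counter, annotation, strand and gene filter are not given in the sources used here. The deposited values are log2 values that the authors variance-stabilised over all 40 libraries after dividing by size factors. The lowest value, 1.65, stands for 0 reads. Inverting the transformation gave whole reads for 100% of values (tolerance 0.01).

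Each tissue was fitted with limma 3.58.1 in R 4.3.3, with genotype as the only term and a mean-variance trend, leaving out genes whose mean in the tissue was less than 1 above the lowest value. A model of all libraries had mouse as a random block (statmod 1.5.0, correlation 0.233). Replicates are separate mice. Models were tested on simulated data. The simulated libraries were drawn independently, with no shared mouse, so the rates for the mean effect and the F test leave that dependence out. Of genes changed 2-fold, limma called 14.1% (pancreas), 58.6% (kidney), 29.6% (ovary), 29% (heart) and 38% (small intestine), so many were missed. The mean effect called 64% of them. Of genes changed 4-fold, 65% (heart) to 90% (kidney) were called per tissue. Other genes called were 4 (ovary) to 12 (heart) per tissue, 1 on the mean effect and 88 by the F test. No change was put into these other genes in any tissue, so all of them, the 88 included, were false calls. In the data itself the F test called 23 genes. Gene positions and exon lengths are from GENCODE M21, matched by Ensembl ID for 18017 genes.

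All 10 members are named. From each list every gene that passed is named, with up to 3 more of smallest p, and for each member that passed the 3 genes of highest r. A gene of these lists is not reported here. Members, lists and rules were chosen with earlier results of these data known. Alternatives were other filters, scales and weights, voom, a replicate block, 1 model of all libraries, and libraries, mice or tissues left out.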

Additional observations from a re-analysis of the deposited data

Results flagged for a closer look

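Within the 5 FMTg libraries of a tissue, a member's highest or lowest log2 value was set apart when its gap to the next library, as a share of the group's range, exceeded 0.71. Of 50 groups 3 were set apart, and chance gives about 1 in 20. FMTg replicate 2, the same mouse in both tissues, was the highest for Bax in the heart (467 normalised reads, next 265, share 0.767) and for Bbc3 in the kidney (195, next 95.8, share 0.804). FMTg replicate 4 was the lowest for Bcl2 in the ovary (384, next 559.8, share 0.765).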

How the results depend on the processing

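Depth limits Pmaip1 and Bid most: both had 0 reads in FMTg pancreas replicate 4, where up to 18.5 normalised reads are allowed. Bax in the kidney, and Bax and Bbc3 on the mean over tissues, passed under every alternative run. Of the fits of single members, 16 lost a call and 16 gained one against the fits reported, and none that passed in either fit changed sign.

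In 83 fits a member that passed in neither fit had the opposite sign, and 0 of these fits gave a call; the cause was not tested. Of 54 effects of a member that did not pass, 22 had the opposite sign in at least 1 fit and 32 kept theirs in all, among them Bax and Bbc3 in the 4 tissues other than the kidney and Bmf in all but the heart. Both without FMTg replicates 4 and 5 and with the replicate block the log2 changes of opposite sign were Bid (0.85) in the pancreas, Bak1 (-0.12) and Bcl2 (0.036) in the kidney, Bcl2l1 (-0.044), Mcl1 (-0.082) and Bcl2 (0.11) in the ovary, Bmf (0.021) and Bcl2l11 (0.39) in the heart, Bcl2l11 (0.068), Bcl2l1 (-0.018) and Bcl2 (0.057) in the small intestine, and without FMTg replicates 4 and 5 also Bid (0.14), Bcl2l11 (0.22), Bcl2l1 (-0.067) and Bcl2 (0.15) on the mean over tissues. With library weights they were Bid (0.36) in the pancreas, Bak1 (-0.0089) and Bcl2 (0.0015) in the kidney, Mcl1 (-0.063) and Bcl2 (0.044) in the ovary, Bcl2l11 (0.16) in the heart, Pmaip1 (-0.36) in the small intestine, Bid (0.057), Bcl2l11 (0.016), Bcl2l1 (-0.029) and Bcl2 (0.00090) on the mean over tissues. They were Bid (0.0011) and Bcl2 (0.0041) in the ovary, Bcl2l11 (0.0065) in the heart after centring each library, Bid (-0.087) and Bcl2 (-0.056) in the heart in the model of all libraries, Bid (-0.037) in the heart with voom, Pmaip1 (-0.0010) in the pancreas on the scale of log2 normalised reads plus 1, and Bid (1.25) in the pancreas with only mice that gave an ovary. Bcl2l1 on the mean over tissues had -0.016 without the kidney and -0.012 without the small intestine. Without the 4 libraries with RNA of another tissue they were Pmaip1 (-0.34) in the pancreas, Bid (-0.12) and Bcl2 (-0.050) in the heart. Without 1 library or replicate number the ranges that included both signs were Bak1 (-0.084 to 0.41), Pmaip1 (-0.34 to 1.21) and Bid (-1.14 to 0.52) in the pancreas, Bid (-0.11 to 0.054), Bcl2l1 (-0.023 to 0.19) and Bcl2 (-0.11 to 0.11) in the ovary, Bid (-0.17 to 0.40), Bcl2l11 (-0.14 to 0.20), Bcl2 (-0.16 to 0.14), Bmf (-0.18 to 0.054) and Bcl2l1 (-0.17 to 0.090) in the heart, Pmaip1 (-0.20 to 0.34) in the small intestine, Bcl2l1 (-0.019 to 0.12) and Bcl2l11 (-0.19 to 0.044) on the mean over tissues.

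Counts of genes changed depended on the setting, and the cause was not tested. In the pancreas (68) they were 10 without the trend, 568 with library weights, 313 in the model of all libraries, 109 without FMTg replicates 4 and 5, 2 with only mice that gave an ovary, and 9 to 93 without 1 library each. In the kidney (95) they were 211 with weights, 57 in the model of all libraries and 46 to 94 without 1 library. In the ovary (0) they were 17 with weights, 68 in the model of all libraries and 0 to 3 without 1 library. In the heart (3) they were 26 with weights, 27 in the model of all libraries, 1 without FMTg replicates 4 and 5 and 1 to 4 without 1 library. In the small intestine (0) they were 55 with weights, 28 in the model of all libraries and 0 without 1 library. On the mean effect (122) they were 343 without the mouse block, 350 with weights, 61 without the kidney and 56 to 170 without 1 replicate number. The F test (23) called 12 without the mouse block, 14 without the trend, 1331 with weights, 36 without FMTg replicates 4 and 5, 8 without the pancreas, 7 without the kidney, 50 without the small intestine, 3 to 47 without 1 replicate number, and 35 without the 4 libraries with RNA of another tissue, an alternative chosen after seeing the data.

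Members that passed in the pancreas were 1 (Bmf) with voom, 3 with weights and 3 in the model of all libraries (Bax, Bbc3 and Bmf each time), and 0 to 1 without 1 library. In the kidney they were 1 to 3 without 1 library. In the small intestine Bax passed with weights and in the model of all libraries (1 each), and the F test called 5 members with weights (Bax, Bbc3, Pmaip1, Bmf and Bcl2l11). Bbc3 in the kidney was lost with voom (adjusted p = 0.125).

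Replicate numbers 1 to 3 recur in both genotypes but name different mice. Same-numbered libraries correlated from -0.59 to 0.59 in their deviations from the group means. The correlation was over 0.1 in 6 of 15 pairs and in every pair of 0 tissues. Of 15 Tg libraries 4 correlated best with their own number, as did 6 of the FMTg libraries numbered 1 to 3. With the replicate block 0 genes passed in the pancreas and 0 in the heart, and in the kidney Bax (0.0133) and Bbc3 (0.0236) passed while Pmaip1 did not (adjusted p = 0.0828).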
